A study of Mus musculus with 26 samples.

Results

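The fibroblast growth factor (FGF) and ERK feedback genes described here were chosen by name and comprise the ligands Fgf4, Fgf5, and Fgf8, the receptors Fgfr1 and Fgfr2, the feedback inhibitors Spry2, Spry4, and Dusp6, and the ETS transcription factors Etv4 and Etv5. Of these 10 genes, 9 have expression values among the 15646 genes of the RNA-seq table, and the same 9 have 10 of the 19022 captured promoter fragments (baits) of the interaction lists. Spry2 has neither, so its expression and contacts were not analysed here, and only its RefSeq promoter was searched for motifs. FGF ligands bind receptor tyrosine kinases at the cell surface and activate the kinase ERK through RAS, RAF, and MEK. ERK signaling switches on genes that damp it, among them Sprouty proteins, which act on the way from receptor to ERK, and Dusp6, a phosphatase that removes the activating phosphates from ERK itself. Autocrine FGF4 acting through ERK is known to move mouse embryonic stem cells (ESCs) out of naive pluripotency, whereas cells of the primed, post-implantation epiblast express Fgf5 and Fgf8 and depend on FGF in culture.

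The study compared promoter contacts by promoter capture Hi-C (PCHi-C) and gene expression by RNA-seq between wild-type (WT) ESCs, epiblast-derived stem cells (EpiSCs), and Nanog-/- ESCs. WT ESCs were the E14Tg2a line (129P2/OlaHsd) and Nanog-/- ESCs the line RCNβH-B(t) made from it, both grown on gelatin in serum with 1000 U/ml LIF, the Nanog-/- cells with 25 µg/ml hygromycin during expansion. EpiSCs were an embryo-derived 129S2 line, grown on fibronectin in serum-free N2B27 with 20 ng/ml Activin A and 12 ng/ml bFGF, itself a ligand of the receptors described here. Each state is thus 1 named line, and the strain field of the labels reads C57BL/6 for all samples, unlike the growth protocol. Cell state, line, strain, and medium, including the added FGF and the serum, cannot be told apart in the EpiSC comparison, and clone and hygromycin cannot be told apart from Nanog loss in the other. The labels name 12 PCHi-C lanes (5 of WT ESCs, 2 of EpiSCs, 5 of Nanog-/- ESCs) and 10 RNA-seq samples (3, 4, and 3). Expression was available as 1 median RPKM (a read count corrected for the length of the gene and the size of the library) per state and contacts as 1 combined list per state, so there is no replicate error, no test was made, and every difference below is a description of these medians and lists.

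EpiSC RPKM values were a median of 1.89 times the WT ESC values over 9077 genes, a shift of 0.91 on the log2 scale, and were divided by this factor. The Nanog-/- factor was 1.05, and those values were used as deposited. Nanog itself had 418 RPKM in WT ESCs, 191 in EpiSCs after scaling, and 22.3 in the Nanog-/- cells, 18.8-fold below WT ESCs but not 0, and the table does not show which part of the gene the remaining reads come from. Of 10 naive markers, 7 were in the table, and all 7 were at least 2-fold lower in EpiSCs (summed 909 RPKM in WT ESCs and 26.3 in EpiSCs). Of 8 primed markers, Cer1, T, and Foxa2 were at least 2-fold higher in EpiSCs, Lefty2 was lower, and Otx2 and Dnmt3b differed by less. In Nanog-/- ESCs, Klf4 and Dppa3 of the naive markers and Zic2, Cer1, and T of the primed markers were at least 2-fold lower, Cer1 being listed at 0. The WT ESC, EpiSC, and Nanog-/- lists held 100492, 87369, and 74931 different contacts with a median of 13, 11, and 11 reads, and no listed CHiCAGO score (a weighted measure of reads above the background for that distance) was under 5. Reads are given as listed, with no scaling to library depth, which the lists do not give, so differences of a few reads between lists are values only.

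In EpiSCs, 4 of the 9 genes were at least 2-fold higher than in WT ESCs (Fgf5, Fgf8, Fgfr1, and Dusp6), and 3 were at least 2-fold lower (Fgf4, Spry4, and Etv5). The threshold was a difference of 1 in log2(RPKM + 1), which 10.4% of all genes passed upward and 9.66% downward (15.2% and 14.1% of the 10728 genes at 1 RPKM or more in a state, as all 9 were). In Nanog-/- ESCs, 3 genes were at least 2-fold higher (Spry4, Dusp6, and Etv4) and 2 were lower (Fgf5 and Fgf8), where 1.69% and 1.35% of all genes passed (2.46% and 1.98% of those at 1 RPKM or more). Both comparisons share the WT ESC median, so a value that is high or low in WT ESCs moves both. The ligands therefore split in EpiSCs, with Fgf4 low and Fgf5 and Fgf8 high, while all 3 ligands were below WT ESCs in Nanog-/- ESCs, Fgf4 by less than 2-fold. Fewer cells that express a gene and less RNA per cell cannot be told apart in these bulk samples.

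**Figure D1:**
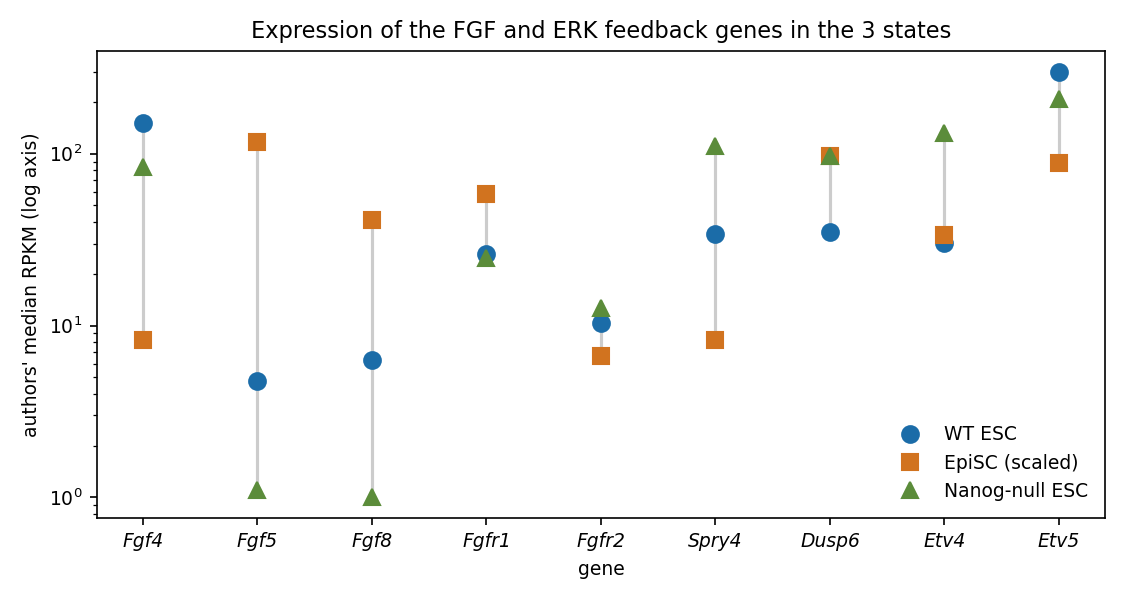
Median RPKM (log axis) of the 9 measured genes in WT ESCs (circles), EpiSCs after scaling (squares), and Nanog-/- ESCs (triangles), with a gray line from the lowest to the highest state. Fgf5 spans the widest range, from 1.11 RPKM in Nanog-/- ESCs to 116 in EpiSCs, and Fgfr2 the narrowest, from 6.62 to 12.6.

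**Figure D2:**
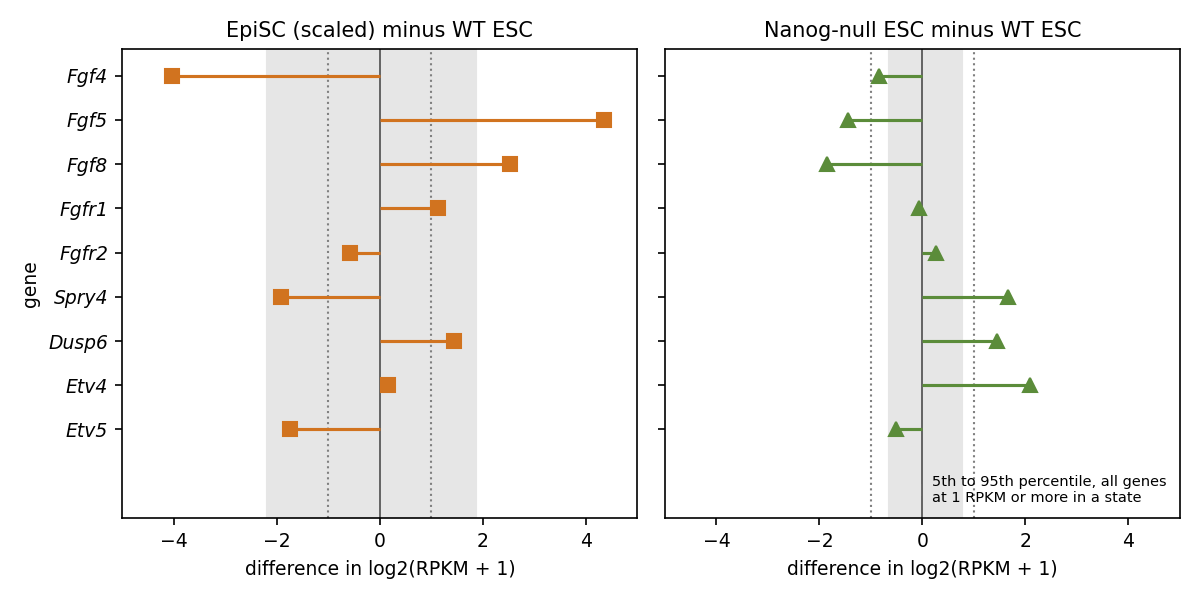
Difference in log2(RPKM + 1) of each gene from WT ESCs, in EpiSCs after scaling (left) and Nanog-/- ESCs (right), with dotted lines at a difference of 1 in either direction and the gray band from the 5th to the 95th percentile of 10728 genes at 1 RPKM or more in a state. Fgf4, Fgf5, and Fgf8 lie outside the band in both panels, Spry4, Dusp6, and Etv4 lie above it in the Nanog-/- panel, and the other differences lie inside it.

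Fgf4, the ligand that ESCs make themselves, had 151 RPKM in WT ESCs, 83.6 in Nanog-/- ESCs, and 8.23 in EpiSCs (15.5 as deposited). It was among the top genes of WT ESCs, at percentile 96.0, and stood at percentile 57.4 in EpiSCs, where it was 18.3-fold lower (log2 difference -4.04). The Nanog-/- level was 1.81-fold below that of WT ESCs (log2 difference -0.84), short of the threshold. The genes whose 3 values were nearest to those of Fgf4 by Euclidean distance in log2(RPKM + 1) over the 3 states were Tubb2a (distance 0.70), Mreg (0.79), and Ndufb4 (0.82).

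Fgf5, a ligand used as a marker of the primed epiblast, had 4.74 RPKM in WT ESCs, 116 in EpiSCs (219 as deposited), and 1.11 in the Nanog-/- cells. It was 24.5-fold higher in EpiSCs (log2 difference 4.35), the largest difference among the 9 genes in either comparison. In Nanog-/- ESCs it was 4.27-fold lower than in WT ESCs (log2 difference -1.44), at a level close to the pseudocount of 1, so the log2 value understates the ratio. Pomc (distance 0.95), Isg15 (0.96), and T (1.08), the mesoderm factor Brachyury, had the 3 values nearest to those of Fgf5.

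Fgf8, a ligand of the primitive streak and many later signaling centers, had 6.26 RPKM in WT ESCs, 41.1 in EpiSCs (77.4 as deposited), and 1.01 in the Nanog-/- cells. It had the same order of states as Fgf5, with a smaller EpiSC difference (6.56-fold, log2 difference 2.53) and a larger Nanog-/- difference (6.20-fold lower, log2 difference -1.85). Trim67 (distance 0.66), Col2a1 (0.78), and Ppp4r4 (0.85) were nearest to it.

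The promoters of Fgf4 and Fgf5, the ligands with the largest EpiSC differences in opposite directions, are shown as the 250 bases before the RefSeq start (GRCm38.p6, plus strand), for Fgf4 chr7:144861136-144861385 and for Fgf5 chr5:98253934-98254183. The capitals in the Fgf5 sequence mark the HindIII site at which its bait begins, 6 bases before the start, so the sequence shown for Fgf5 lies almost wholly on the neighboring fragment, outside the bait.
Fgf4 promoter: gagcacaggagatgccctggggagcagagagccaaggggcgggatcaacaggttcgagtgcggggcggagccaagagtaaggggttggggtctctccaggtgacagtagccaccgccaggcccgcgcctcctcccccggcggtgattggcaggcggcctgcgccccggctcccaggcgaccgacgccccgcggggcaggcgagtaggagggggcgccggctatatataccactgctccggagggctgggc
Fgf5 promoter: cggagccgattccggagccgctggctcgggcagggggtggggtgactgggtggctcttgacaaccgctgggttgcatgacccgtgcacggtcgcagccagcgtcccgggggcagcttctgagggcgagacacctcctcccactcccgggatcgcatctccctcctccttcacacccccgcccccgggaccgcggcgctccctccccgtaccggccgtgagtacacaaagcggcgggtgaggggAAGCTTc
The 250 bases were 71.2% G and C in Fgf4 and 70.8% in Fgf5, against a median of 52.4% over 32817 promoters. RefSeq promoter windows (250 bases before to 50 after the start) were found for Fgf4, Fgf5, Fgfr2, Spry2, Dusp6, and Etv5, the last with 2 starts, and not for Fgf8, Fgfr1, Spry4, or Etv4. None of 6 motifs searched on both strands occurred in any of these windows, namely the ETS core CCGGAAG (in 8.86% of all promoters), the octamer ATGCAAAT (1.74%), the SOX motif ACAATGG (3.67%), the CRE TGACGTCA (1.79%), the AP-1 motif TGANTCA (7.81%), and the TCF motif CTTTGAT (3.73%). No motif overlaps another in these letters, and absence says only that the letters are not in the window.

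The Fgf4 bait (chr7:144858795-144862092) had 1 contact in WT ESCs, 1 in EpiSCs, and 3 in the Nanog-/- cells. The promoter of Fadd, an adaptor of death receptors, lay 278 kb upstream and was in contact in WT ESCs (8 reads, score 5.88) and in Nanog-/- ESCs (9 reads, score 10.2). It was not in the EpiSC list, whose single Fgf4 contact was a fragment 293 kb upstream, the bait of Gm10574 (8 reads, score 6.78). The WT ESC and EpiSC lists thus each held 1 partner with 8 reads, a different fragment in each. The reads of either fragment in the list that lacks it are not known. In Nanog-/- ESCs only, Fgf4 was also in contact with the neighboring ligand gene Fgf3 at 21.8 kb (24 reads, score 6.39) and with a fragment at 12.9 kb (27 reads, score 5.43). Fgf3 was expressed at 1.28 RPKM in WT ESCs, 0.176 in EpiSCs after scaling, and 1.98 in Nanog-/- ESCs. The contact between both ligand promoters was thus listed in the state with most Fgf3 RNA, itself a low level. Whether the Fgf3 level goes with this contact was not tested. The EpiSC partner is short enough to show whole (GRCm38, chr7:144567299-144567535, plus strand, intergenic by protein-coding annotation), with a match to the AP-1 motif, which 6.95% of 5006 listed fragments of 150 to 300 bases hold, in capitals.
Fgf4 partner in EpiSCs: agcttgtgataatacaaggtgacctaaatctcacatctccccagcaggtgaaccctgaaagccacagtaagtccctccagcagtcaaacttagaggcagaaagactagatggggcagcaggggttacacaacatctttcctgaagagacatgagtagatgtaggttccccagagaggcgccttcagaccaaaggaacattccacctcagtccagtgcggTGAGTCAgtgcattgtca

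The Fgf5 bait (chr5:98254178-98257976) had 2 contacts in WT ESCs, 2 in EpiSCs, and 1 in the Nanog-/- cells. In WT ESCs the best partner was the promoter of Prdm8, a histone methyltransferase family member, 75.2 kb upstream (28 reads, score 7.05), which was in neither other list. Prdm8 was expressed at 0.087 RPKM in WT ESCs and 1.17 in EpiSCs. In EpiSCs and Nanog-/- ESCs the best partner was on the other side, the bait of 1700007G11Rik over an exon of Cfap299, 73.0 kb downstream (24 reads and score 10.0 in EpiSCs, 11 reads and score 5.29 in Nanog-/- ESCs). This downstream contact was listed where Fgf5 was highest and where it was lowest, with more reads and a higher score where Fgf5 was highest. Its reads in WT ESCs are not known, because the lists stop at a score of 5. Whether the Fgf5 level goes with this contact was not tested. EpiSCs also held an intergenic fragment 64.9 kb upstream (14 reads, score 5.10), on the Prdm8 side, and WT ESCs an intron of Bmp3 602 kb downstream (6 reads, score 5.20).

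The Fgf8 bait (chr19:45740317-45743601) had 10 contacts in WT ESCs, 9 in EpiSCs, and 3 in the Nanog-/- cells, all 17 different partners downstream of the gene, on the side of Fbxw4, Poll, Btrc, Lbx1, and Tlx1. Introns of Fbxw4 are known to hold embryonic enhancers of Fgf8. In WT ESCs, 9 of the 10 partners lay 437 to 577 kb away, near the developmental homeobox genes Lbx1 and Tlx1, with 6 to 10 reads each and the highest score for a fragment over an exon of Lbx1 at 512 kb (10 reads, score 10.8). In EpiSCs 5 partners lay beyond 430 kb with 3 to 5 reads each, and 4 lay 147 to 192 kb away with 11 reads each, including both intronic fragments of Fbxw4 at 147 and 152 kb (scores 7.02 and 7.36) and the Poll bait at 173 kb (score 6.67). Of these 4 nearer partners, the one at 192 kb was also in the WT ESC list (10 reads, score 5.32 against 8.90 in EpiSCs), and none was in the Nanog-/- list. Nanog-/- ESCs held the fragments at 512 and 521 kb that WT ESCs also held and the Tlx1 promoter at 594 kb (8 reads, score 11.2). The EpiSC list, from the state with most Fgf8 RNA, thus held more of the nearer partners. The reads of these partners in lists that lack them are not known. Whether the Fgf8 level goes with these contacts was not tested. Tlx1 was at 0.015 RPKM in WT ESCs and 0.067 in Nanog-/- ESCs.

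Among the receptors, Fgfr1, the main FGF receptor of the epiblast, had 26.0 RPKM in WT ESCs, 58.2 in EpiSCs (110 as deposited), and 24.8 in the Nanog-/- cells. It was 2.24-fold higher in EpiSCs (log2 difference 1.13) and differed by -0.06 on the log2 scale in Nanog-/- ESCs. Fgfr2, a receptor better known from primitive endoderm and trophoblast, had 10.3, 6.62 (12.5 as deposited), and 12.6 RPKM in the same order, with log2 differences of -0.57 and 0.26. Fgfr1 was above Fgfr2 in each state on this per-length scale, and Fgfr2 did not reach a 2-fold difference in either comparison.

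Fgfr1 has a pair of adjacent baits (chr8:25509742-25517012 and chr8:25517013-25521105), here called the first and the second. The first had 2 contacts in WT ESCs, 16 in EpiSCs, and 1 in the Nanog-/- cells, and the second had 6, 7, and 3. For the first bait, EpiSCs had 14 more contacts than WT ESCs, and 0.689% of the 19022 baits gained more. Over both baits, 23 of 29 different contacts were in 1 list only, where 63.5% of contacts over all baits were. Of these, 18 were in the EpiSC list alone, a share that was not counted over all baits. Over all baits, 45.5% of EpiSC contacts were also in the WT ESC list and 36.4% in the Nanog-/- list. Many of the 18 are runs of neighboring fragments. Most of the EpiSC additions lay upstream, toward Tacc1, and nearly all of these partners were intergenic. Between 119 and 267 kb there were 6 contacts in WT ESCs (7 to 11 reads), 15 in EpiSCs (5 to 8 reads), and 1 in the Nanog-/- cells (7 reads). Scores there reached 8.24 in WT ESCs, 8.0 in EpiSCs, and 8.02 in the Nanog-/- cells, so EpiSCs had more listed fragments, not stronger single ones. The fragment chr8:25352674-25354021 was the best WT ESC partner of both baits, with the first at 160 kb (11 reads and score 7.45 in WT ESCs, 8 reads and score 7.56 in EpiSCs) and with the second at 166 kb (10 reads and score 8.24 in WT ESCs, 7 reads and score 8.02 in Nanog-/- ESCs). It was therefore found with at least 1 of the baits in every list.

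Nearer to Fgfr1, EpiSCs held 3 upstream partners between 30.8 and 92.9 kb (10 to 20 reads) where WT ESCs held none and Nanog-/- ESCs held 1 (85.8 kb, 7 reads). An intronic fragment of Fgfr1 28.3 kb downstream of the first bait was listed in EpiSCs (21 reads, score 6.54) and Nanog-/- ESCs (14 reads, score 5.43) but not in WT ESCs. The contact with most reads of all was between the second bait and an Fgfr1 intron 8.33 kb away, with 57 reads in WT ESCs and 48 in EpiSCs but scores of only 5.52 and 7.43, the score being set against the background for the distance. The promoter of Letm2 was a partner of the second bait in WT ESCs alone (14 reads, score 5.29). In EpiSCs the first bait was in contact with another fragment over an exon of Letm2, 65.4 kb downstream (12 reads, score 6.5). The closest upstream partner of the EpiSC list, 30.8 kb from the first bait (20 reads, score 6.66), is shown whole (GRCm38, chr8:25482422-25482638, plus strand), with none of the 6 motifs in it.
Fgfr1 partner in EpiSCs: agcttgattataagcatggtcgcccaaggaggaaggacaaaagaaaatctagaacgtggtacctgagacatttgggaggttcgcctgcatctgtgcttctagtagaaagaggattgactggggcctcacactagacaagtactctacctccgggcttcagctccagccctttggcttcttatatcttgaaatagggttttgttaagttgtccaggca

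The fragment that the lists name Fgfr2 (chr7:133118508-133126117) lies 2.85 Mb from the RefSeq start of the gene and also covers an exon of Ctbp2. It had no contact in WT ESCs, 3 in EpiSCs 452 to 518 kb away (4 or 5 reads each), and 1 in Nanog-/- ESCs at 524 kb (6 reads, score 10.1). These are contacts of that fragment and are not read as contacts of the usual Fgfr2 promoter. Without it, the 9 other baits had 43, 67, and 31 contacts.

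**Figure D3:**
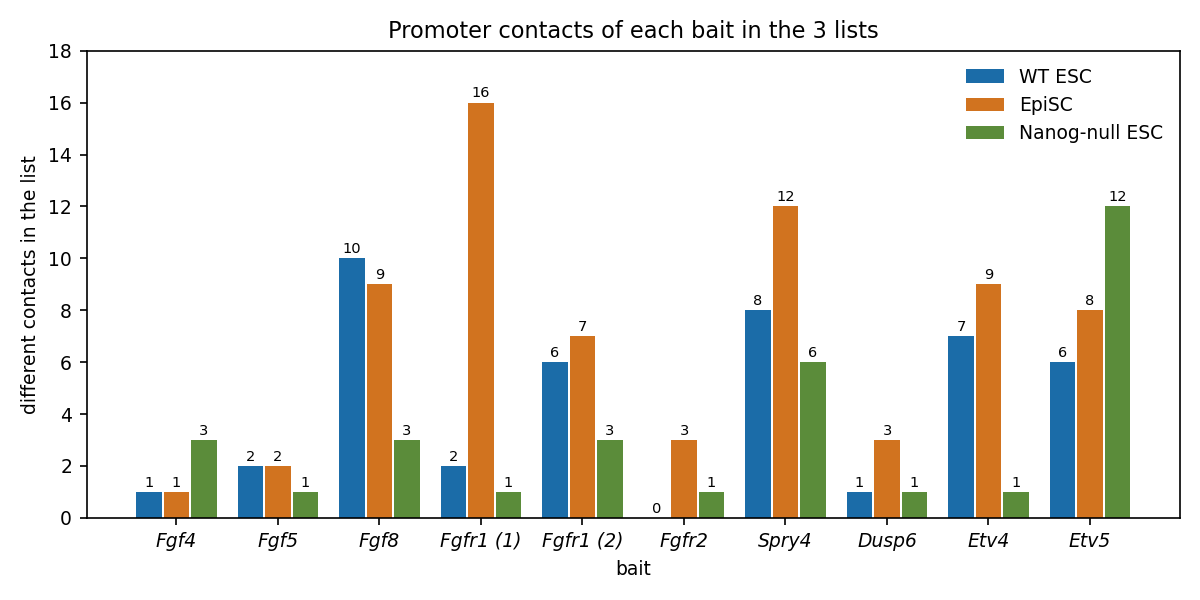
Number of different contacts of each of the 10 baits in the WT ESC, EpiSC, and Nanog-/- lists, with the 2 adjacent Fgfr1 fragments shown as Fgfr1 (1) and Fgfr1 (2). The first Fgfr1 bait goes from 2 contacts in WT ESCs to 16 in EpiSCs, and Etv5 is highest in Nanog-/- ESCs with 12.

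The measured feedback inhibitors, Spry4 and Dusp6, went in opposite directions in EpiSCs and were both higher in Nanog-/- ESCs. Spry4, a Sprouty inhibitor of receptor signaling, had 34.0 RPKM in WT ESCs, 8.22 in EpiSCs (15.5 as deposited), and 111 in the Nanog-/- cells. It was 4.14-fold lower in EpiSCs (log2 difference -1.92) and 3.25-fold higher in Nanog-/- ESCs (log2 difference 1.67), the only one of the 9 genes past the threshold in opposite directions with EpiSCs low and Nanog-/- ESCs high. Dusp6, the ERK phosphatase, had 34.8, 96.3 (181 as deposited), and 96.8 RPKM. It was thus higher than in WT ESCs in both other states, by 2.77-fold in EpiSCs (log2 difference 1.44) and 2.78-fold in Nanog-/- ESCs (log2 difference 1.45).

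The Spry4 bait (chr18:38595961-38603414) had 8 contacts in WT ESCs, 12 in EpiSCs, and 6 in the Nanog-/- cells, and 18 of its 20 different partners lay upstream, most of them in introns of the neighboring gene Arhgap26. An Arhgap26 intron fragment 187 kb away was in all 3 lists, with 13 reads and a score of 5.41 in WT ESCs, 16 and 10.2 in EpiSCs, and 12 and 8.26 in the Nanog-/- cells. The best partners of the lists sat within a few fragments of it, at 188 kb in WT ESCs (18 reads, score 9.24), at 184 kb in EpiSCs (18 reads, score 12.2), and at this fragment itself in Nanog-/- ESCs. Between 131 and 233 kb, EpiSCs held 9 partners, WT ESCs 3, and Nanog-/- ESCs 4, so the state with least Spry4 RNA had most listed contacts there. The nearest partner, 35.8 kb upstream, was listed in WT ESCs (46 reads, score 7.19) and Nanog-/- ESCs (26 reads, score 6.94) and not in EpiSCs. Farther out, between 263 and 325 kb, WT ESCs held 3 partners (10 or 11 reads), EpiSCs 1, and Nanog-/- ESCs 1, the last being the promoter of the ligand gene Fgf1 (8 reads, score 5.45). Fgf1 was at 2.81 RPKM in WT ESCs, 0.387 in EpiSCs, and 2.18 in the Nanog-/- cells.

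The Dusp6 bait (chr10:99258565-99270584) had 1 contact in WT ESCs, 3 in EpiSCs, and 1 in the Nanog-/- cells, none shared by any pair of lists. Over all baits, 63.5% of contacts were in 1 list only. The EpiSC partners lay 187, 190, and 201 kb downstream (6, 7, and 6 reads, best score 7.93) in a stretch without protein-coding genes. The Nanog-/- partner, the Gad1-ps bait, was 180 kb away on the same side (5 reads, score 5.33), and the WT ESC partner was 308 kb away (5 reads, score 5.13). All rest on 5 to 7 reads. The EpiSC and Nanog-/- partners fell into 1 region of about 20 kb, and Dusp6 RNA was higher in those states. Whether the Dusp6 level goes with contacts of this region was not tested.

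The ETS factors also differed from each other. Etv4 had 30.1 RPKM in WT ESCs, 33.8 in EpiSCs (63.8 as deposited), and 132 in the Nanog-/- cells, where it was 4.39-fold higher (log2 difference 2.10). Its EpiSC difference was 0.17 on the log2 scale and 1.06, past the threshold, without scaling. Etv5, the most abundant of the 9 genes in WT ESCs at percentile 98.3, had 299, 87.9 (166 as deposited), and 209 RPKM. It was 3.40-fold lower in EpiSCs (log2 difference -1.75), which became -0.85 and short of the threshold without scaling, and -0.51 on the log2 scale in Nanog-/- ESCs. Both are known ERK-responsive factors of the same subfamily, and in Nanog-/- ESCs the higher one of WT ESCs stayed within 2-fold while the lower one passed the threshold upward.

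The Etv4 bait (chr11:101762425-101797453) is 35029 bases long and also holds exons of Dhx8, so its contacts cannot be assigned to 1 promoter. It had 7 contacts in WT ESCs, 9 in EpiSCs, and 1 in the Nanog-/- cells, all upstream in 3 stretches. Fragments 25.1 to 33.6 kb away were listed in WT ESCs (2, with 19 and 22 reads) and EpiSCs (4, with 17 to 21 reads). Fragments 124 to 136 kb away, toward the homeobox gene Meox1, were 3 in WT ESCs with 7 reads each and 2 in EpiSCs, among them the best Etv4 partner of any list at 132 kb (12 reads and score 13.5, against 7 reads and 6.86 in WT ESCs). Neither stretch had a contact in Nanog-/- ESCs. The farthest stretch, 179 to 208 kb away at Sost, which codes for a Wnt inhibitor of bone, and Dusp3, held 2 partners in WT ESCs, 3 in EpiSCs, and the single Nanog-/- partner (5 reads, score 5.51). The state with most Etv4 RNA thus had the fewest listed contacts of this bait, and 8.86% of all baits lost more contacts than the 6 lost here.

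The Etv5 bait (chr16:22432964-22439951) had 6 contacts in WT ESCs, 8 in EpiSCs, and 12 in the Nanog-/- cells, and 5 of its 16 different partners were in all 3 lists. All 5 lie in Dgkg, the neighboring gene for a diacylglycerol kinase, 66.8 to 113 kb upstream. At 113 kb the reads were 14 in WT ESCs, 30 in EpiSCs, and 13 in the Nanog-/- cells, with scores of 8.18, 18.4, and 12.7. At 110 kb they were 14, 30, and 13, with scores of 7.98, 17.8, and 12.5. At 108 kb they were 20, 26, and 8, with scores of 12.9, 14.8, and 6.21. These partners are near neighbors along Dgkg and had most reads in EpiSCs, where Etv5 RNA was lowest. At 75.1 kb, a fragment that is also the bait of 9230117E06Rik, the reads were 12, 18, and 11 and the scores 7.06, 16.3, and 11.5. At 66.8 kb they were 16, 17, and 14, with scores of 6.28, 5.15, and 10.0. Nanog-/- ESCs held 5 further Dgkg partners beside these, so that 10 of 12 contacts lay within 66.8 to 120 kb upstream, against 5 of 6 in WT ESCs and 6 of 8 in EpiSCs. Of all baits, 1.26% gained more contacts than the 6 gained by Etv5 in Nanog-/- ESCs. On the downstream side, Nanog-/- ESCs held 2 partners and EpiSCs 1, all 119 to 126 kb away near Tra2b (7 to 13 reads).

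**Figure D4:**
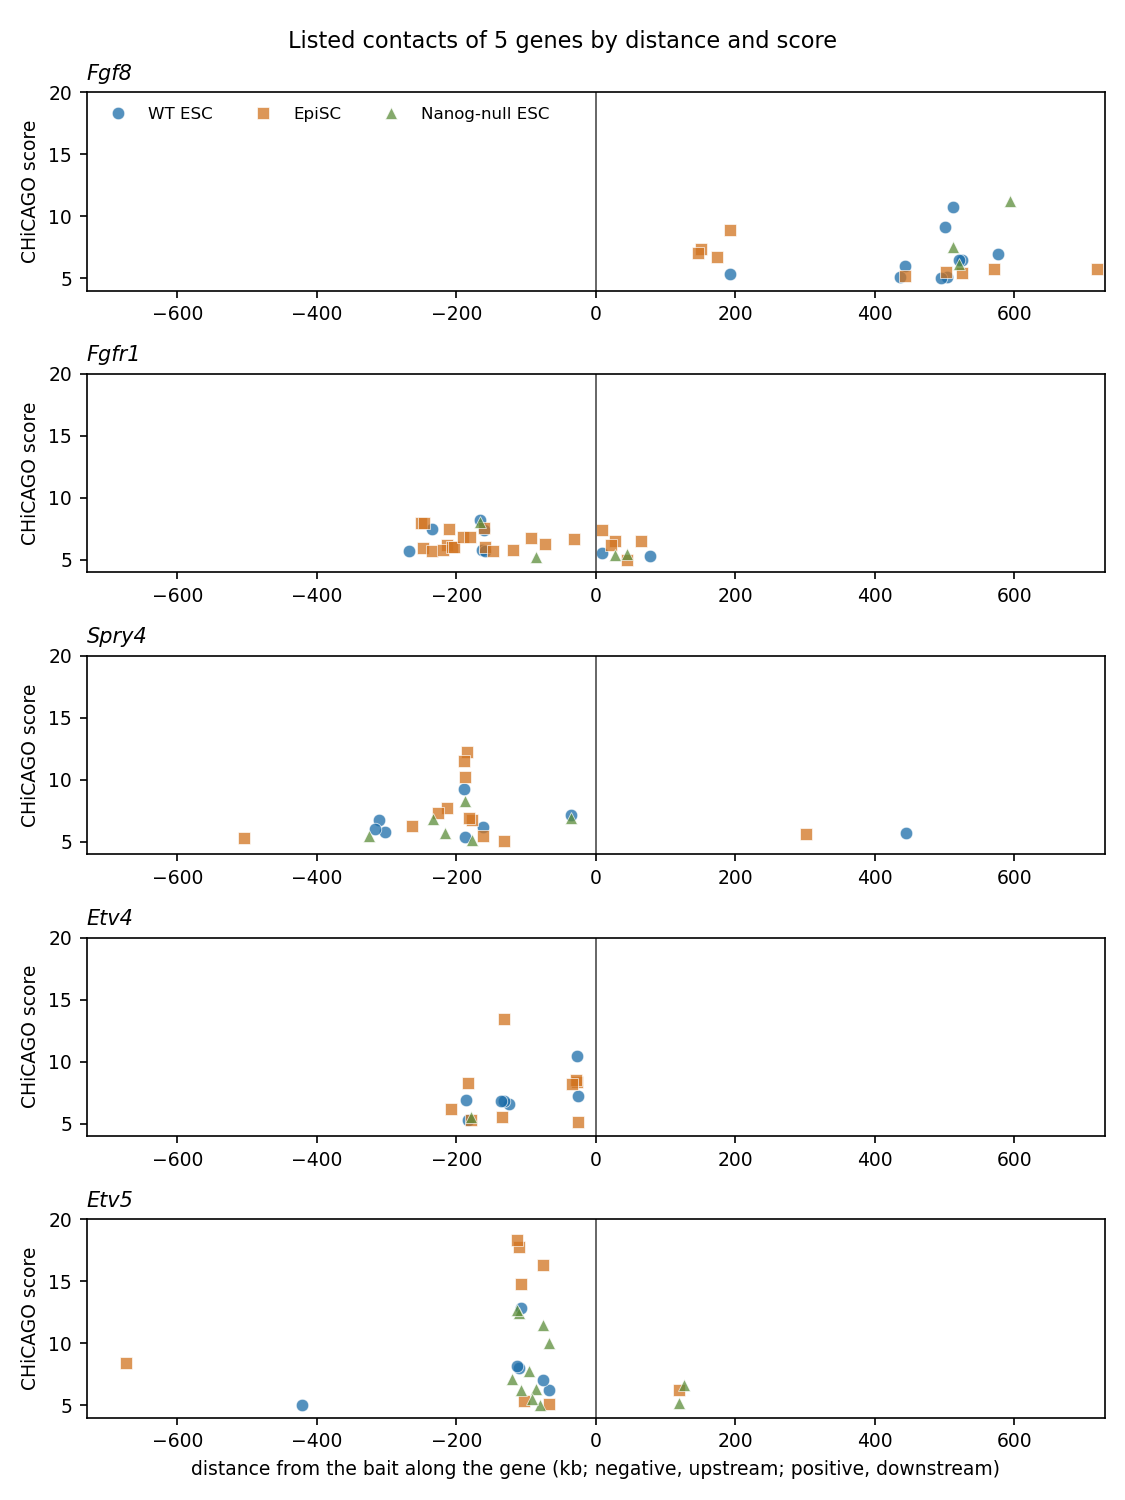
CHiCAGO score of each listed contact against its distance from the bait along the gene (kb, negative upstream), for Fgf8, Fgfr1 (both baits), Spry4, Etv4, and Etv5 in WT ESCs (circles), EpiSCs (squares), and Nanog-/- ESCs (triangles). Fgf8 has contacts only downstream, with 4 EpiSC squares and 1 WT ESC circle between 147 and 192 kb, and the Etv5 contacts crowd between 66.8 and 120 kb upstream, where EpiSC scores reach 18.4.

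Over all 10 baits there were 43 contacts in WT ESCs, 70 in EpiSCs, and 32 in the Nanog-/- cells, 111 different ones in all, with a median of 9, 9.5, and 9 reads. The genes had more contacts in EpiSCs than in WT ESCs although the EpiSC list as a whole is shorter. Much of the surplus is the first Fgfr1 bait: without Fgfr1 the counts were 35, 47, and 28. Of the 111, 75 lay upstream and 36 downstream, 26 of the partners held a protein-coding exon, 30 lay in introns, and 55 were intergenic, and 21 were themselves baits. The median distance was 187 kb in WT ESCs, 181 kb in EpiSCs, and 116 kb in Nanog-/- ESCs, longer than the 139, 141, and 74.1 kb of all contacts.

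Few contacts were common to the lists. Of the 111, 6 were in all 3 lists (5.41%, against 14.4% over all baits), 22 in 2 lists (19.8% against 22.1%), and 83 in 1 list (74.8% against 63.5%). Of the 43 WT ESC contacts, 18 were also in the EpiSC list (41.9%, Wilson 95% interval 28.4 to 56.7), near the 39.6% of all baits. Of the same 43, 11 were also in the Nanog-/- list (25.6%, 14.9 to 40.2), below the 41.8% of all baits. With contacts of at least 20 kb only, the share was 26.2% against 36.1% of all baits, which lies within that interval. Of the 70 EpiSC contacts, 25.7% (16.9 to 37.0) were in the WT ESC list and 15.7% (9.01 to 26.0) in the Nanog-/- list, against 45.5% and 36.4%. Of the 32 Nanog-/- contacts, 34.4% (20.4 to 51.7) were in each other list, against 56.0% for WT ESCs and 42.4% for EpiSCs. Intervals cover counting error only, and contacts of 1 bait with neighboring fragments are not independent. Without Etv5, 35.1% of WT ESC contacts were also in the EpiSC list and 16.2% in the Nanog-/- list. Sharing by exact fragment is strict: when partners within 10 kb counted as the same, 69.8% of WT ESC contacts had a counterpart in EpiSCs (65.6% over all baits) and 53.5% in Nanog-/- ESCs (66.4%).

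**Figure D5:**
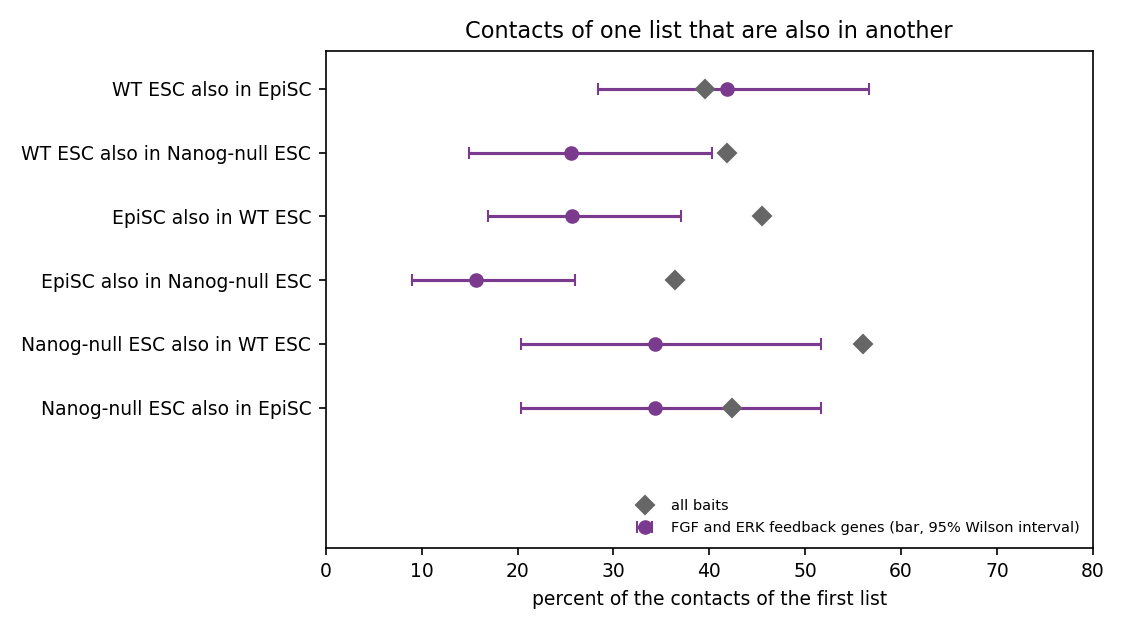
Percent of the contacts of the first-named list that are also in the second, for the FGF and ERK feedback genes (circles, bars the Wilson 95% interval) and for all baits (diamonds). The share of WT ESC contacts also in EpiSCs, 41.9%, lies next to that of all baits, 39.6%, and the other 5 shares lie below theirs, the Nanog-/- share in EpiSCs with the diamond inside its interval.

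Beyond these genes, 87 other genes of the pathway were listed, and 70 of them were in the table. In EpiSCs, 20 were at least 2-fold higher and 7 lower, where 10.4% and 9.66% of all genes passed, so the lower count is near the background. The median log2 difference was 0.26 (0.00 over all genes). In Nanog-/- ESCs 7 were higher and 3 lower, where 1.69% and 1.35% of all genes passed, with a median of 0.13 (0.01 over all genes). Of 14 other receptors and co-receptors, 10 were higher in EpiSCs and 1 was lower, with a median of 1.29. They include the heparan sulfate carriers that present FGF to its receptors, with Sdc2 at 30.1 RPKM in EpiSCs against 3.97 in WT ESCs (log2 difference 2.65), Gpc6 at 7.05 against 0.443 (2.48), and Gpc4 at 64.3 against 12.4 (2.29), and the membrane protein Flrt3 at 10.6 against 1.29 (2.34). Fgfr4, a further receptor, was the lower one, at 0.322 against 2.81 RPKM (-1.53). In Nanog-/- ESCs Flrt3 was higher (6.93 RPKM, log2 difference 1.79) and Gpc3 lower (19.0 against 62.4 RPKM, -1.67).

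Of 12 other ligands in the table, 7 of them at 1 RPKM or more in a state, 1 was higher and 3 were lower in EpiSCs. In Nanog-/- ESCs 1 was higher and 1 lower. Of all genes, 10.4% and 9.66% passed in EpiSCs and 1.69% and 1.35% in Nanog-/- ESCs, so the 1 higher ligand in EpiSCs is near the background. Fgf18 was lower in both, at 7.56 RPKM in WT ESCs, 0.759 in EpiSCs (-2.28), and 1.37 in the Nanog-/- cells (-1.85). Fgf15 had 37.4 RPKM in WT ESCs and 9.42 in EpiSCs (-1.88). Among 14 adaptors and kinases, 1 was higher in EpiSCs and none passed in Nanog-/- ESCs, counts near the shares of all genes.

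Of 15 other genes listed as feedback inhibitors, 5 were higher and 2 lower in EpiSCs, and 2 were higher in Nanog-/- ESCs. Of genes at 1 RPKM or more, 15.2% and 14.1% passed in EpiSCs, and 2.46% passed upward in Nanog-/- ESCs. The median log2 difference of the 15 was 0.56 in EpiSCs and 0.57 in Nanog-/- ESCs. For genes at 1 RPKM or more it was 0.00 and 0.07. The 2 lower in EpiSCs are near the share of 14.1%. Of the 2 higher in Nanog-/- ESCs, the ERK phosphatase Dusp4 had 24.5 RPKM in WT ESCs and 78.2 in Nanog-/- ESCs (log2 difference 1.63). The other was Lgals1, with 216 RPKM in WT ESCs and 523 in Nanog-/- ESCs (1.27). Lgals1 was also 1 of the 5 higher in EpiSCs (1.04). It is a galectin gene and not an established ERK feedback inhibitor, so both upward counts include a gene of doubtful class. Of 15 other transcription factors tied to ERK, 3 were higher and 1 lower in each comparison, in EpiSCs near the same shares. The immediate early gene Fos was lower in EpiSCs (45.3 against 12.3 RPKM, -1.80). Myc (24.2 against 72.2 RPKM, 1.54) and the AP-1 subunit Fosl1 (1.81 against 6.16 RPKM, 1.35) were higher in Nanog-/- ESCs, and there the early response factor Egr1 was lower (73.0 against 29.9 RPKM, -1.26).

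Some markers of other cell types also differed between the states. All 5 primitive endoderm markers (Gata4, Gata6, Sox17, Sox7, and Dab2) were at least 2-fold higher in Nanog-/- ESCs, with a summed level of 3.66 RPKM in WT ESCs, 17.9 in EpiSCs, and 66.9 in the Nanog-/- cells, and 3 were higher in EpiSCs. Of 6 fibroblast markers, 5 were in the table and 4 were higher in EpiSCs (Col1a1, Col1a2, Col3a1, and Pdgfra), with summed levels of 44.8, 208, and 61.2 RPKM. In Nanog-/- ESCs only Pdgfra of these was higher, with 0.938 RPKM in WT ESCs and 9.20 in Nanog-/- ESCs (log2 difference 2.40). Col1a1, Col1a2, and Col3a1 differed there by 0.17, 0.16, and 0.06, so Pdgfra did not go with the collagen genes. The part of these cell type markers in the results above was not tested. The summed level of 3 neural markers was 78.6, 10.7, and 36.6 RPKM, nearly all of it Tubb3, with Pax6 under 2 RPKM in each state and Neurog2 listed at 0 in Nanog-/- ESCs. The 4 trophoblast markers summed to 2.91, 3.19, and 7.96 RPKM.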

How the data were processed

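The RNA-seq table gives RPKM (reads scaled by gene length and library size), deposited by the authors as 1 median per state. The submitters' processing notes name Trim Galore, TopHat, Bowtie 1.1.0, and DESeq2, with no role or order. The table also holds columns of the authors' own log2 fold changes and significance, which were not used. By the methods, PCHi-C read pairs were processed with HiCUP on GRCm38 and scored with CHiCAGO. The authors deposited 1 list per state with the read count and the score of each fragment pair, combined over replicates. The library depth is not given by the lists. The listed contacts sum to 2177383, 1651422, and 1440356 reads in WT ESCs, EpiSCs, and Nanog-/- ESCs.

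The genes, pathway lists, markers, and motifs were chosen with earlier results of these data known, and the distance ranges of contacts were set after their values were seen. Named by rule were all listed genes, up to 4 other pathway genes past the threshold per direction and comparison, the 3 nearest genes to each of Fgf4, Fgf5, and Fgf8, the best contact per bait and list, and contacts in all 3 lists. Lgals1 was named in addition, outside this rule. Differences are in log2(RPKM + 1), with EpiSC values divided by the median EpiSC to WT ESC ratio over genes at 1 RPKM or more in both. Contacts between baits appear once from each side in places and entered as 1 pair, with the higher reads and score. Distances are between fragment midpoints, and upstream and downstream follow the strand of the gene. All 118 fragments used had HindIII sites at both ends in GRCm38. Promoters are RefSeq (GRCm38.p6), and exons are GENCODE protein-coding exons. Shares have Wilson 95% intervals. The steps were tested on simulated data. ChIP-seq samples were not used here. Python 3.11.15, numpy 2.4.6, scipy 1.17.1, pandas 2.3.3, matplotlib 3.10.9, and pysam 0.24.0 were used.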

Additional observations from a re-analysis of the deposited data

How the results depend on the processing

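The 4 counts of genes past 2-fold stayed within 1.5 times under a pseudocount of 0.1, a filter of 1 RPKM, and the other scaling, and no difference past the threshold changed sign. Without scaling, the EpiSC difference of Etv4 passed the threshold (1.06) and that of Etv5 no longer did (-0.85). Contact counts depend on the cutoffs. With scores of at least 7 they were 14 in WT ESCs, 26 in EpiSCs, and 12 in the Nanog-/- cells, and with at least 10 reads 21, 35, and 13, as fewer contacts are then counted. Both cutoffs kept EpiSCs highest. The share of WT ESC contacts also in EpiSCs became 57.1% with at least 10 reads (40.2% over all baits) and 69.8% with partners within 10 kb, and the share also in Nanog-/- ESCs 53.5% with partners within 10 kb. With at least 10 reads the Nanog-/- share was 28.6%, against 39.8% over all baits. With scores of at least 7, which left 14 WT ESC contacts, the shares were 50.0% in EpiSCs and 35.7% in Nanog-/- ESCs. Over all baits they were then 38.4% and 43.1%. A minimum distance of 20 kb left each count within 1.5 times and each share within its interval, but lowered the share of all baits also in Nanog-/- ESCs to 36.1%. Leaving out Fgfr1, Fgfr2, or Etv5 was chosen after seeing the data and left each value within 1.5 times or within its interval. No paired analysis was possible because expression is 1 median and contacts 1 combined list per state, and leaving out a replicate could not be done for the same reason. Library depth is not given, so reads were not scaled between lists.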

Other observations

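Of the captured promoters in contact with these genes, several are themselves expressed. Rnf14, a partner of Spry4 in EpiSCs, had 32.0 RPKM in WT ESCs and 50.8 in EpiSCs. Dusp3, a partner of Etv4 in EpiSCs and, like Dusp6, the gene of a phosphatase that acts on MAP kinases, had 10.3 RPKM in WT ESCs, 20.4 in EpiSCs, and 18.6 in the Nanog-/- cells. Fadd, the Fgf4 partner of WT and Nanog-/- ESCs, had 2.93, 4.65, and 4.70 RPKM. Differences past the threshold were found for 1700007G11Rik, the downstream Fgf5 partner, with 0.907 RPKM in WT ESCs and 7.01 in EpiSCs (log2 difference 2.07). Letm2 also passed, with 1.06 and 4.21 RPKM (1.34). Its promoter was an Fgfr1 partner in WT ESCs, and another of its exon fragments was one in EpiSCs. Fgf1 passed with a log2 difference of -1.46 in EpiSCs. Sost and Tlx1 stayed under 1 RPKM in every state.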
